A study of Mus musculus with 20 samples.

Results

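The mouse gene Htr2c, which encodes the serotonin 2C receptor, carries 5 miRNA hairpins in its introns, those of miR-764, miR-1912, miR-1264, miR-1298 and miR-448. The miRNAs described here are all 10 mature arms of these hairpins that the count files list, mmu-miR-1298-5p and mmu-miR-1298-3p among them, of 1886 mature miRNA lines in all. They were selected on measured values of these same libraries, the rise of miR-1298 with culture time, so each difference between the culture days is given as a description and was not tested.

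Small RNA was sequenced from primary midbrain neurons of C57Bl6/J mouse embryos at embryonic day 12.5, dissected from the ventral mesencephalon and grown without serum. Cultures were harvested after 1 day in vitro (DIV1) or after 5 days (DIV5), either untreated (control) or given 10 ng/ml GDNF, a secreted neurotrophic factor first purified from a glial cell line, which supports dopamine neurons. The 4 groups, DIV1 control, DIV1 GDNF, DIV5 control and DIV5 GDNF, hold 5 libraries each and share strain, age, dissection and medium. The labels name no sorting step, so other cells of the dissected tissue can be present, and the origin of the replicates (animals, pools or dishes) is not given, so p-values measure only the spread between these libraries.

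An intronic miRNA is cut out of its host gene's primary transcript as a hairpin by Drosha and trimmed by Dicer to a short duplex, of which usually 1 arm is kept by an Argonaute protein. The kept arm finds target mRNAs mainly through its seed, bases 2 to 8 from the 5′ end. The serotonin 2C receptor is a G protein-coupled receptor made by many neurons and, at a very high level, by the epithelium of the choroid plexus.

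RefSeq (GRCm38.p6) held mature sequences for 8 of the 10 arms, all of them on the plus strand of chromosome X. They are shown 5′ to 3′ with the seed in capitals, because the seeds show whether the arms of this locus form a family.
miR-1298-5p: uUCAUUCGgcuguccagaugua
miR-1298-3p: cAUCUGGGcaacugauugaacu
miR-448-3p: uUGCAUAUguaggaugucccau
miR-448-5p: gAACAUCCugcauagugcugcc
miR-764-3p: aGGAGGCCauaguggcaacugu
miR-764-5p: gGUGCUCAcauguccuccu
miR-1264-3p: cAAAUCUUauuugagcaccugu
miR-1912-3p: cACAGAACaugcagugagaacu

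The 8 seeds were all different, so no 2 of these arms share one. In the table of 1658 mature names, only the seed of miR-764-3p was found in another mouse miRNA, miR-7062-5p, which had a mean of 0.473 counts per 1000000 reads (CPM) here. The hairpins of the 2 most abundant members follow, with both mature arms in capitals, because the balance of the miR-1298 arms differed between the days.
miR-1298 hairpin: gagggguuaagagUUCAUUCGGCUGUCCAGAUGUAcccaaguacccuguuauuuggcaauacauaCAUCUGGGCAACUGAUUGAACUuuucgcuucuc
miR-448 hairpin: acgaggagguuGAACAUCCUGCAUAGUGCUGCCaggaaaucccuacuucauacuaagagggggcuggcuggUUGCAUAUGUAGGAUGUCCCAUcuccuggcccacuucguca

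Htr2c spans chrX:146962513-147197277 on the plus strand in GENCODE vM21 (GRCm38, the assembly also called mm10), and all 5 hairpins lie on the same strand within introns, with no overlap of an exon of any Htr2c transcript. In transcript Htr2c-201, which has 6 exons, the hairpins of miR-764 (chrX:147002259-147002366), miR-1912 (chrX:147009441-147009527), miR-1264 (chrX:147010601-147010686) and miR-1298 (chrX:147064905-147065002) share intron 2. That intron is 90.8 kb long and ends before the exon with the start codon. The miR-448 hairpin (chrX:147158210-147158321) lies in intron 4, which is 93.5 kb long and within the coding part of the gene. Along the gene, miR-1298 starts 54.3 kb after miR-1264 and miR-448 starts 93.3 kb after miR-1298.

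**Figure D1:**
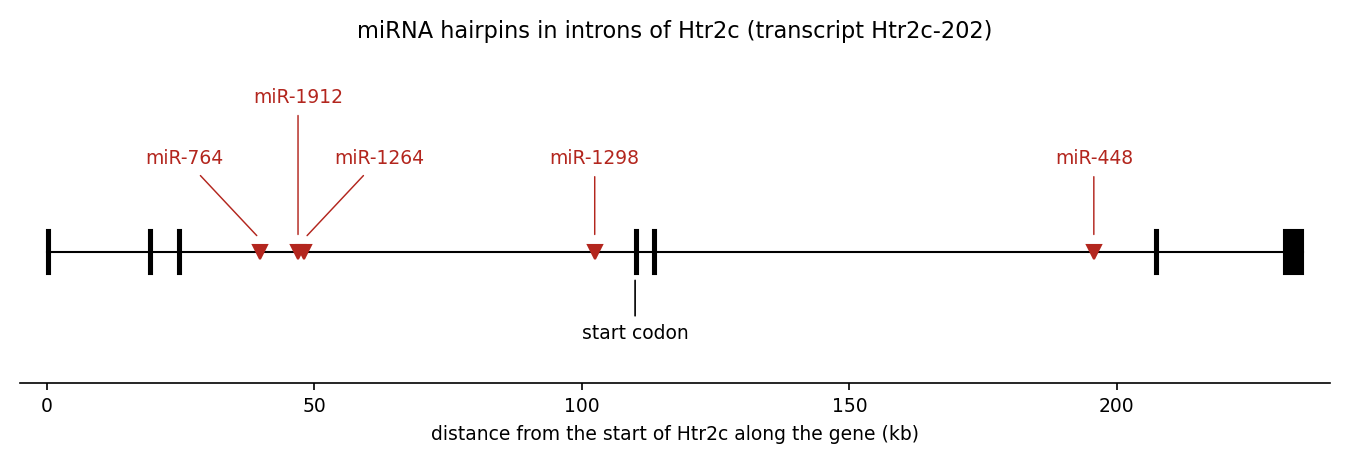
The 5 miRNA hairpins (red triangles) on transcript Htr2c-202 (black boxes are exons, the line is introns), by distance in kb from the start of the gene. The first 4 lie before the exon with the start codon, and miR-448 lies in a later intron.

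The members were measured at unequal depth. Total miRNA counts ran from 420118 to 1761023 per library at DIV1 and from 1061619 to 4324505 at DIV5, and 1 read was worth 0.623 to 2.60 CPM at DIV1 and 0.198 to 0.987 CPM at DIV5. Levels are CPM scaled with TMM, a method that sets libraries to a common level across most miRNAs. Of the 22 arms of neuronal miRNAs such as miR-124 and miR-128, 21 had a read. The arm at 0 was miR-138-5p, although miR-138-1-3p had a mean of 45.1 CPM, and why was not tested. miR-124-3p, a neuronal miRNA, had group means of 2359 CPM (DIV1 control) to 6064 CPM (DIV5 control).

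All 10 arms were detected, but 3 of them held nearly all of the signal. miR-1298-5p had 8703 reads over the 20 libraries, 49.0% of all reads of the 10 arms, miR-448-3p had 6013 (33.8%) and miR-1298-3p had 2275 (12.8%). These 3 arms had a read in each of the 20 libraries, and by mean level they ranked 202, 232 and 325 among the 1886 miRNA lines. The other 7 arms had between 11 reads (miR-1912-5p) and 209 reads (miR-764-3p). A filter on low counts kept 5 arms for the fit (miR-1298-5p, miR-1298-3p, miR-448-3p, miR-764-3p and miR-1264-3p) and left out 5 (miR-448-5p, miR-764-5p, miR-1264-5p, miR-1912-3p and miR-1912-5p). Between 4 and 7 of the 10 arms had a read in a DIV1 library and between 8 and 10 in a DIV5 library. At the lower depth of DIV1, an arm with no read could have had up to 1.87 to 7.80 CPM (3 reads, counting error only).

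miR-1298-5p, the more abundant arm of its hairpin, was at 113, 77.0, 74.1, 79.8 and 104 CPM in DIV1 control replicates 1 to 5, and at 134, 164, 257, 319 and 262 CPM in DIV5 control. With GDNF it was at 79.2, 92.5, 86.0, 83.6 and 80.6 CPM at DIV1, and at 156, 172, 260, 335 and 225 CPM at DIV5. Each DIV5 library lay above each DIV1 library of its treatment, and the nearest pair without GDNF was 113 and 134 CPM. The group means were 89.4 ± 17.5 and 227 ± 76.1 CPM without GDNF and 84.4 ± 5.27 and 229 ± 71.9 CPM with GDNF (SD, n = 5). The fitted difference was 1.34 on the log2 scale without GDNF (SE 0.225) and 1.44 with GDNF (SE 0.226), a 2.54-fold and a 2.72-fold higher level at DIV5. In bulk cultures, a change in the share of a cell type and a change in RNA per cell cannot be told apart.

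miR-1298-3p, the opposite arm, was the rarer arm at both days and differed more between them. In DIV1 control it was at 10.8, 6.41, 4.19, 2.62 and 7.74 CPM, and in DIV5 control at 38.2, 41.5, 78.1, 77.2 and 64.6 CPM. With GDNF it was at 9.72, 12.6, 6.23, 8.96 and 2.60 CPM at DIV1, and at 42.6, 54.9, 99.6, 83.3 and 56.5 CPM at DIV5. The days did not overlap, and the lowest DIV5 library had 38.2 CPM against 12.6 CPM in the highest DIV1 library. The fitted difference was 3.16 (log2, SE 0.366) without GDNF and 2.99 (SE 0.35) with GDNF, an 8.95-fold and a 7.97-fold higher level. The DIV1 values rest on 1 to 16 reads per library.

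miR-448-3p, from the intron nearer the 3′ end, was at 34.4, 37.6, 30.8, 27.5 and 18.6 CPM in DIV1 control and at 93.8, 118, 204, 234 and 171 CPM in DIV5 control. With GDNF it was at 38.9, 28.8, 34.3, 26.9 and 26.0 CPM at DIV1 and at 112, 135, 205, 221 and 167 CPM at DIV5. Again no DIV5 library overlapped a DIV1 library. The fitted difference was 2.45 (log2, SE 0.249) without GDNF and 2.43 (SE 0.249) with GDNF, a 5.45-fold and a 5.40-fold higher level.

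**Figure D2:**
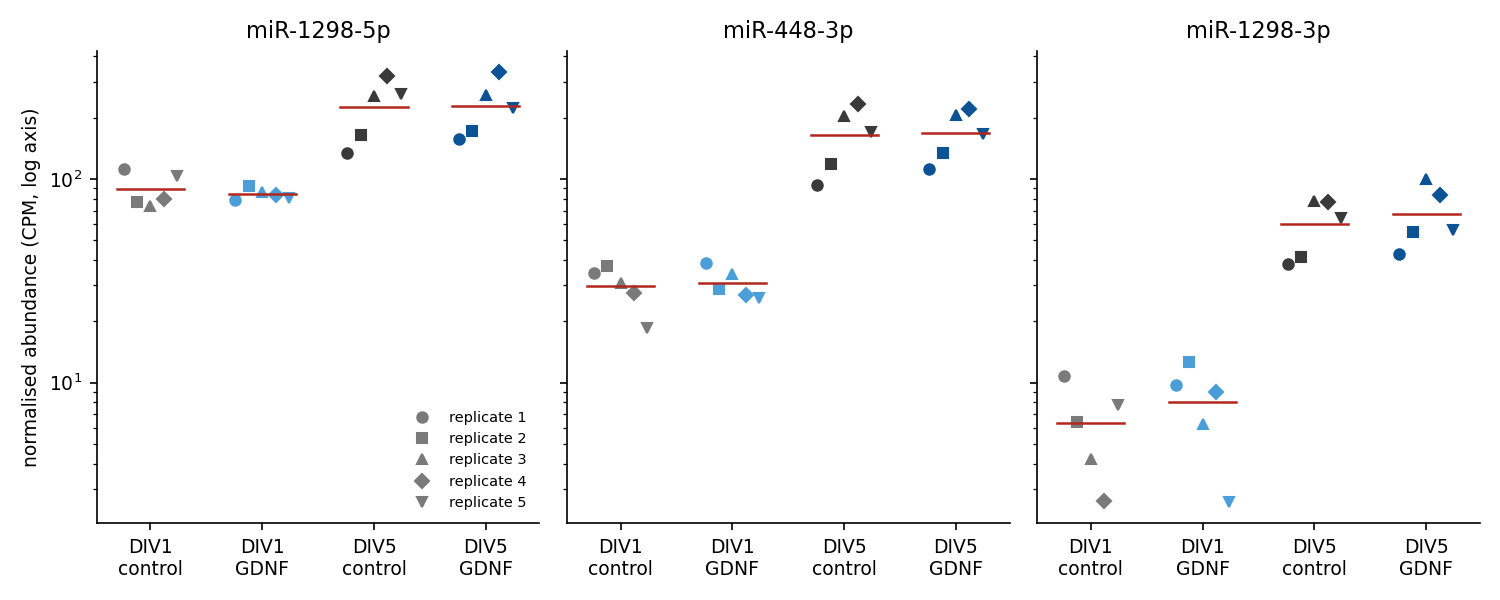
CPM (log axis) of miR-1298-5p, miR-448-3p and miR-1298-3p in each library of the 4 groups, with marker shape for the replicate number and red lines for group means. Every DIV5 library lies above every DIV1 library of the same treatment, and at DIV5 replicates 1 and 2 lie below replicates 3 to 5.

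The 2 rarer tested arms were near the detection limit at DIV1. miR-764-3p was at 0.674, 2.75, 0, 0 and 0 CPM in DIV1 control and at 2.36, 0.987, 7.52, 6.66 and 8.08 CPM in DIV5 control, so its lowest DIV5 library lay below its highest DIV1 library. With GDNF it was at 1.39, 0, 0.623, 0.995 and 0 CPM at DIV1 and at 2.51, 4.09, 6.20, 7.49 and 8.32 CPM at DIV5, with no overlap. The log2 difference was 2.69 (SE 0.901) without GDNF and 3.14 (SE 1.01) with GDNF, and the first became 4.14 without DIV1 control replicate 2, which held 3 of the 4 reads of its group. miR-1264-3p had 2 reads over the 5 DIV1 control libraries and 107 over the DIV5 control libraries, and 6 and 86 reads with GDNF. Its log2 difference was 3.72 (SE 0.992) without GDNF, where the days did not overlap, and 2.02 (SE 0.627) with GDNF, where DIV5 replicate 2 (1.17 CPM) lay within the DIV1 range. The first became 4.37 without DIV1 control replicate 4, which held 1 of the 2 reads of its group.

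The 5 arms below the filter are given by pooled reads, with exact 95% intervals that cover counting error only. miR-764-5p, on the hairpin arm opposite miR-764-3p, went from 5 to 54 reads without GDNF, a 3.16-fold higher pooled CPM (1.27 to 10.1), and from 3 to 52 reads with GDNF, 5.37-fold (1.74 to 26.9). miR-1912-3p went from 3 to 38 reads without GDNF, 3.70-fold (1.18 to 18.8), and from 7 to 29 reads with GDNF, 1.28-fold (0.550 to 3.47), an interval that includes no difference. miR-448-5p went from 4 to 70 reads without GDNF, 5.12-fold (1.91 to 19.3). With GDNF it had no read at DIV1 and 51 at DIV5. Its pooled DIV5 CPM was 5.26-fold a limit of 3 reads over the DIV1 group. That fold leaves out the counting error at DIV5, so it is not a lower bound. miR-1264-5p had no read in any DIV1 library, and 16 and 22 reads at DIV5. Its pooled DIV5 CPM was 1.56-fold the same kind of limit without GDNF and 2.27-fold with GDNF. Without GDNF the DIV5 interval (0.569 to 1.62 CPM) reached below the DIV1 limit of 0.638 CPM. With GDNF it was 0.884 to 2.14 CPM, against a limit of 0.621 CPM. miR-1912-5p also had no read at DIV1, and its 4 and 7 reads at DIV5 lie below the limit that DIV1 allows, so no fold is given.

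Many miRNAs other than these were higher at DIV5. Of the 542 tested, 31.4% were called higher at DIV5 without GDNF and 25.1% with GDNF (edgeR, adjusted p below 0.05). Without overlap, all 5 DIV5 libraries above all 5 DIV1 libraries, were 4 of the 5 tested members without GDNF, beside 20.1% of all tested miRNAs, and 4 of 5 with GDNF, beside 18.6%. Since the members were chosen for this contrast, nothing is read from these counts or from the ranks that follow. In order of log2 difference without GDNF, miR-1264-3p ranked 6, miR-1298-3p 10, miR-764-3p 14, miR-448-3p 19 and miR-1298-5p 72 of the 542. With GDNF the order was miR-764-3p 3, miR-1298-3p 4, miR-448-3p 7, miR-1264-3p 15 and miR-1298-5p 32. In the DIV1 control and GDNF groups, miR-1264-3p had 2 and 6 reads and miR-764-3p had 4 and 3. Both passed the filter on low counts only through DIV5 libraries, so a high rank was set in advance for them. With library totals in place of TMM, the median of all tested moved from 0.10 to 0.36 without GDNF and from 0.0017 to 0.15 with GDNF, and miR-1298-5p from 1.34 to 1.60 and from 1.44 to 1.59. The calls then split into 228 higher and 111 lower in place of 170 and 159 without GDNF, and into 166 and 117 in place of 136 and 148 with GDNF.

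**Figure D3:**
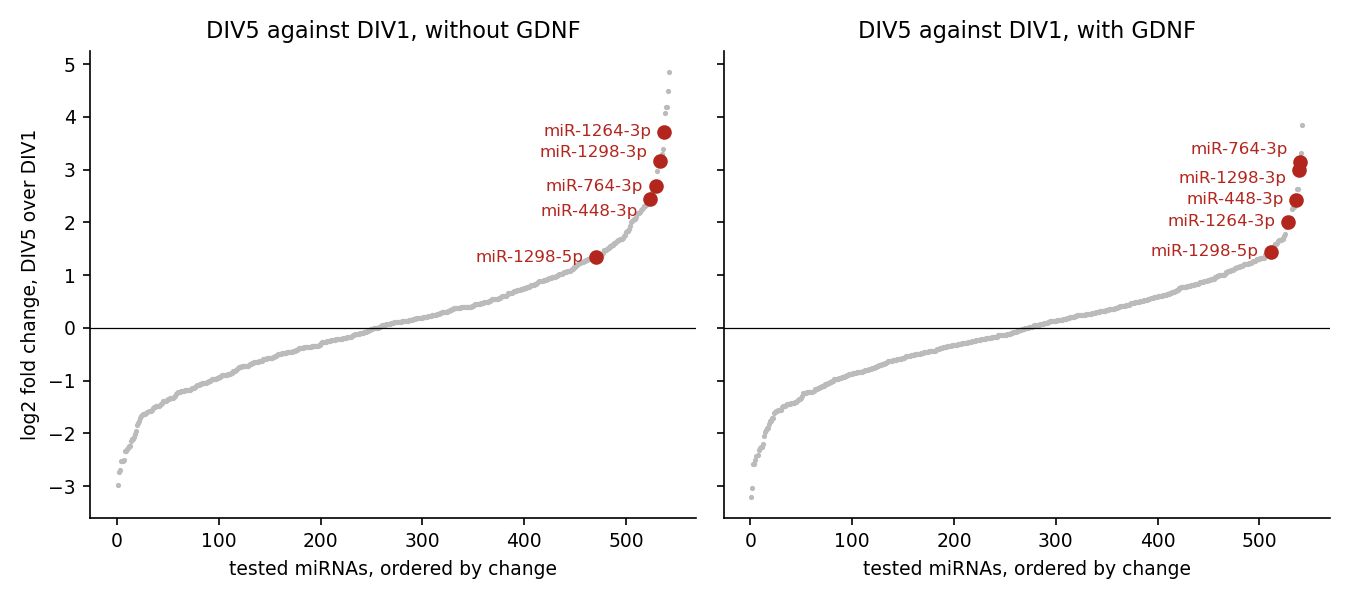
Log2 fold change of DIV5 over DIV1 for all 542 tested miRNAs in rising order (grey), without GDNF on the left and with GDNF on the right, with the 5 tested Htr2c arms in red. All 5 lie above 0 in both panels, with miR-1298-5p the lowest of them (1.34 and 1.44).

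The DIV5 libraries were not uniform, and the split by replicate number given here was chosen after the values were seen. miR-1298-5p was at 134 to 172 CPM in the 4 libraries of replicates 1 and 2 and at 225 to 335 CPM in the 6 of replicates 3 to 5. miR-448-3p was at 93.8 to 135 CPM against 167 to 234 CPM, and miR-1298-3p at 38.2 to 54.9 CPM against 56.5 to 99.6 CPM, again with no overlap. miR-764-3p showed the same order, 0.987 to 4.09 CPM against 6.20 to 8.32 CPM. The fifth tested arm, miR-1264-3p, overlapped, with 1.17 to 6.52 CPM against 4.16 to 7.57 CPM. The same 4 libraries had lower total counts (1061619 to 1907937 against 2969524 to 4324505), a larger share of reads without a feature (17.7% to 19.5% against 9.51% to 13.3%) and a higher sum of miRNAs of vascular, mesenchymal and blood cells (1321 to 3172 CPM against 327 to 799 CPM). The sums of the other cell type lists described below overlapped. Neuronal miRNAs were at 19757 to 28624 CPM in replicates 1 and 2 against 20669 to 23624 CPM in replicates 3 to 5. Glial miRNAs were at 4461 to 6962 against 4308 to 8105 CPM. Those of choroid plexus, epithelial and ciliated cells were at 1931 to 2916 against 1583 to 2383 CPM. The part of any of these in the members' levels was not tested. With only replicates 1 and 2 kept at DIV5, the log2 difference of miR-1298-5p was 0.78 without GDNF and 0.95 with GDNF, and with only replicates 3 to 5 it was 1.63 and 1.72. For miR-448-3p these were 1.85 and 1.98, and 2.74 and 2.70.

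The arms of miR-1298 did not keep their balance. The 3p arm held 8.74%, 7.69%, 5.36%, 3.17% and 6.94% of the reads of miR-1298 in DIV1 control and 22.2%, 20.2%, 23.3%, 19.5% and 19.8% in DIV5 control. With GDNF it held 10.9%, 12.0%, 6.76%, 9.68% and 3.12% at DIV1 and 21.4%, 24.2%, 27.7%, 19.9% and 20.1% at DIV5. The 10 DIV1 libraries (mean 7.44% ± 3.01, SD) and the 10 DIV5 libraries (21.8% ± 2.62) did not overlap. Over pooled reads the share was 74 of 919 at DIV1, or 8.05% (exact binomial 95% interval 6.38 to 10.0), and 2201 of 10059 at DIV5, or 21.9% (21.1 to 22.7). Of the 144 miRNAs with both arms tested, 10 had a 3p share without overlap between the days in either direction, 6.94%, and miR-1298 was 1 of them. At DIV5 the share was 22.0% ± 1.69 in replicates 1 and 2 (n = 4) and 21.7% ± 3.26 in replicates 3 to 5 (n = 6), a difference within their spread. The share is a ratio of 2 arms that the rule used, so it was not tested.

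Of the other hairpins, miR-764, miR-1264 and miR-1912 had fewer reads and give this balance with less precision. The 3p arm of miR-448 held 299 of 303 reads at DIV1, 98.7% (96.7 to 99.6), and 5714 of 5835 at DIV5, 97.9% (97.5 to 98.3). miR-764 had 7 of 15 reads on its 3p arm at DIV1, 46.7% (21.3 to 73.4), and 202 of 308 at DIV5, 65.6% (60.0 to 70.9). miR-1264 had 193 of 231 reads on the 3p arm at DIV5, 83.5% (78.1 to 88.1), and miR-1912 had 67 of 78, 85.9% (76.2 to 92.7). At DIV1 all 8 reads of miR-1264 and all 10 of miR-1912 were on the 3p arm; the exact intervals reach down to 63.1% and 69.2%. At DIV5, miR-1298 was the only one of the 5 hairpins with more pooled reads on its 5p than on its 3p arm.

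Within a library, miR-448-3p was counted against miR-1298-5p. There were 0.305, 0.488, 0.415, 0.344 and 0.179 reads of miR-448-3p per read of miR-1298-5p in DIV1 control and 0.701, 0.723, 0.794, 0.733 and 0.651 in DIV5 control. With GDNF the ratio was 0.491, 0.311, 0.399, 0.321 and 0.323 at DIV1 and 0.715, 0.786, 0.791, 0.661 and 0.744 at DIV5. The mean was 0.358 ± 0.0939 over 10 DIV1 libraries and 0.730 ± 0.0509 over 10 DIV5 libraries (SD), without overlap. Replicates 1 and 2 of DIV5 (0.731 ± 0.0376, n = 4) and replicates 3 to 5 (0.729 ± 0.0617, n = 6) differed by less than their spread, while the levels of both miRNAs did not overlap between them. Against miR-1298-3p the ratio had the other direction, with 5.41 ± 3.03 reads of miR-448-3p per read of miR-1298-3p at DIV1 (2.29 to 10.5) and 2.63 ± 0.279 at DIV5 (2.06 to 3.03; SD, 10 libraries each), and here the days overlap. A ratio of reads of 2 miRNAs also carries their unequal capture in library preparation, so only its difference between libraries can be read.

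**Figure D4:**
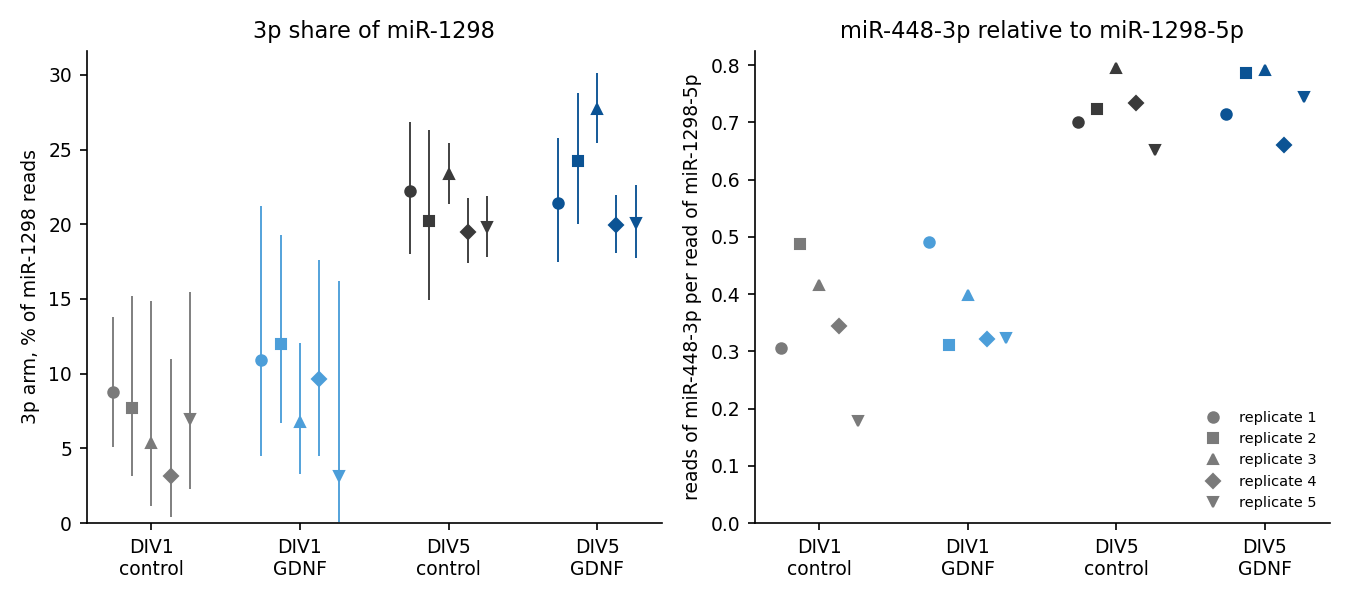
Left, the percentage of miR-1298 reads on the 3p arm in each library with its exact binomial 95% interval; right, reads of miR-448-3p per read of miR-1298-5p, with marker shape for the replicate number. In both panels the DIV5 libraries lie above all DIV1 libraries, and control and GDNF libraries of a day overlap.

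The effect of GDNF was not used to choose these miRNAs and was tested. None of the 5 tested arms was called at DIV1, where 0% of the 542 tested miRNAs were called (7 at an unadjusted p below 0.05, and 0 with DESeq2 and with limma voom). At DIV5 no member was called either, beside 0.185% of all tested, which is 1 miRNA, miR-182-5p (named after its value was seen; log2 1.46, SE 0.271, edgeR adjusted p = 0.0193). That count was 3 with the replicate number as a block, 26 with DESeq2 and 43, 32 or 37 without DIV5 control replicate 2, 3 or 4, and in none of these fits was a member called. The level of miR-1298-5p with GDNF differed from control by -0.083 on the log2 scale at DIV1 (95% interval -0.57 to 0.40) and by 0.014 at DIV5 (-0.44 to 0.47, edgeR adjusted p = 0.997). The DIV5 interval leaves room for a change between a 0.737-fold and a 1.38-fold level. For miR-448-3p the differences were 0.047 (-0.51 to 0.60) and 0.032 (-0.45 to 0.51, adjusted p = 0.988), and for miR-1298-3p 0.33 (-0.54 to 1.21) and 0.16 (-0.42 to 0.75, adjusted p = 0.881).

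For the rarer arms the intervals were wide, and their reads at DIV5 alone brought them into the fit. miR-764-3p differed by -0.40 at DIV1 (-3.08 to 2.28), a value that became 1.02 without DIV1 control replicate 2, and by 0.059 at DIV5 (-0.80 to 0.92, edgeR adjusted p = 0.988). miR-1264-3p had 0, 1, 0, 1 and 0 reads in DIV1 control, and 1, 2, 1, 1 and 1 reads in DIV1 GDNF, or 0 to 1.31 CPM against 0.623 to 2.60 CPM. The groups overlap, and the log2 difference was 1.44 (-0.89 to 3.77), which ran from 0.97 without DIV1 control replicate 1 to 2.05 without DIV1 control replicate 4. At DIV5 it was -0.27 (-0.98 to 0.44, adjusted p = 0.851). In a family of 18 two-sided exact permutation tests of log2(CPM + 0.5), which included the arms below the filter, miR-1264-3p at DIV1 had the smallest p, 0.0476, adjusted 0.857. The adjusted p of the other 17 exact tests was between 0.95 and 0.968, and 5 libraries against 5 cannot give a p below 0.00794. miR-1264-5p and miR-1912-5p could not be tested at DIV1, with no read in any library.

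The difference between the GDNF effects at DIV5 and DIV1, which is also the difference between the changes over time with and without GDNF, called no member, and 0% of the 542 tested miRNAs (50 at an unadjusted p below 0.05, and 0 with DESeq2 and with limma voom). It was 0.097 on the log2 scale for miR-1298-5p (-0.57 to 0.76, edgeR adjusted p = 0.953), -0.17 for miR-1298-3p (adjusted p = 0.952) and -0.015 for miR-448-3p (adjusted p = 0.999). For miR-1264-3p it was -1.71 (-4.15 to 0.73, adjusted p = 0.724), or -2.31 without DIV1 control replicate 4, and for miR-764-3p 0.46 (-2.36 to 3.28, adjusted p = 0.951), or -0.96 without DIV1 control replicate 2.

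**Figure D5:**
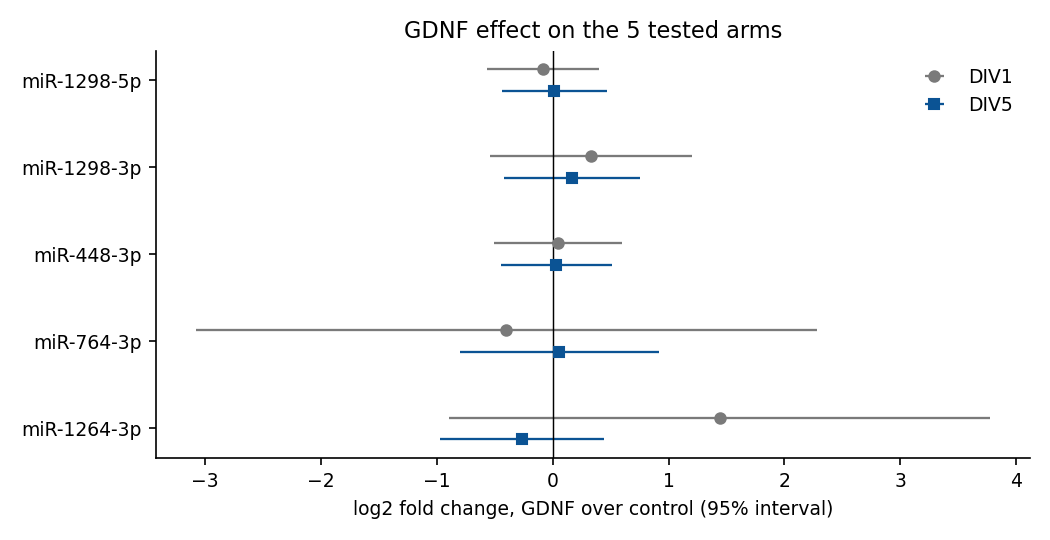
Log2 fold change of GDNF over control for the 5 tested arms at DIV1 (grey circles) and DIV5 (blue squares), with 95% intervals from the edgeR fit. All intervals include 0, and those of miR-764-3p and miR-1264-3p at DIV1 are the widest.

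Over the 20 libraries, the patterns closest to miR-1298-5p were sought among 436 other tested miRNAs with a mean of at least 10 CPM, by the root mean square difference of log2(CPM + 0.5) after each was centred on its own mean. The closest were miR-3071-3p (0.209), miR-136-3p (0.222), miR-598-3p (0.254), miR-582-5p (0.268) and miR-495-3p (0.273). By the same measure miR-448-3p was at 0.603 and miR-1298-3p at 1.02, further from miR-1298-5p than these 5. The measure also grows when the size of the change between the days differs. Both arms differed more between the days than miR-1298-5p, and miR-1298-3p had few reads at DIV1. It therefore cannot tell whether these arms moved together with miR-1298-5p across libraries. By it, the rare arms miR-1264-5p and miR-1912-5p, without a read at DIV1, were nearer to miR-1298-5p than miR-448-3p was. miR-3071-3p, the closest, had means of 95.2 CPM in DIV1 control, 104 in DIV1 GDNF, 263 in DIV5 control and 253 in DIV5 GDNF. The hairpins of miR-3071 and miR-136 overlap on opposite strands of chromosome 12, and whether the counting used strand is not given in the sources used here. The points share library and depth, so this is a description.

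Other miRNAs in introns of neuronal or signalling genes were counted for comparison, from a list that includes miR-128, miR-153, miR-218 and miR-139, the first 3 of which also stand among the neuronal miRNAs below. Of its 16 tested arms, 10 were called higher and 4 lower at DIV5 without GDNF, and 8 and 3 with GDNF. Their median log2 difference was 0.82 and 0.47, beside 0.10 and 0.0017 over all tested miRNAs. Of all 542 tested, 170 were called higher and 159 lower without GDNF, and 136 and 148 with GDNF. The 2 most abundant were miR-128-3p, a neuronal miRNA, with a log2 difference of 1.61 without and 1.33 with GDNF, and miR-153-3p, also enriched in neurons, with 0.71 and 0.83 (edgeR adjusted p of 0.00037 or less in each). No arm of this list, or of the 4 cell type lists below, was called for GDNF at either day.

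Markers of cell types that could hold Htr2c or share the cultures were counted in the same way. Of 23 listed arms for choroid plexus, epithelial and ciliated cells, 18 had a read, and 5 were at 0 (miR-200b-5p, miR-200c-5p, miR-211-3p, miR-449a-3p and miR-449c-5p). Their summed level was 1026 to 1188 CPM in DIV1 control, 1583 to 2916 in DIV5 control, 1026 to 1289 in DIV1 GDNF and 1825 to 2384 in DIV5 GDNF. Of 6 tested arms, 1 was called higher and 1 lower at DIV5, without GDNF and with it. The higher one was miR-204-5p, abundant in choroid plexus and also made elsewhere, with group means of 648 and 1641 CPM without GDNF (log2 1.34, edgeR adjusted p = 5.9e-07) and of 704 and 1689 CPM with GDNF (log2 1.27, adjusted p = 1.1e-06). The lower one, named after its values were seen, was miR-211-5p of the same seed family, at 18.5 and 8.84 CPM without GDNF (log2 -1.15, edgeR adjusted p = 0.013) and 20.4 and 9.95 CPM with GDNF (log2 -0.97, adjusted p = 0.033). miR-34c-5p, a miRNA of ciliated epithelia, was at 390 and 392 CPM without GDNF (log2 0.0075, edgeR adjusted p = 0.969) and 374 and 410 CPM with GDNF (log2 0.13, adjusted p = 0.49). The 10 arms of miR-200a, miR-200b, miR-200c, miR-141 and miR-429, markers of epithelia, had group means between 0 and 3.77 CPM, the highest that of miR-141-3p in DIV1 control.

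The summed level of neuronal miRNAs was 7857 to 11859 CPM in DIV1 control and 20812 to 28624 CPM in DIV5 control, and 8338 to 11759 and 19757 to 24071 CPM with GDNF. Of their 19 tested arms, 13 were called higher and 4 lower without GDNF, and 11 and 3 with GDNF. Among the neuronal arms, the log2 difference of miR-124-3p was 1.36 without GDNF and 1.31 with GDNF (edgeR adjusted p = 4.9e-09 and 1.0e-08). The rarer arm of the same miRNA, miR-124-5p, was called lower, with -1.23 and -1.35 (edgeR adjusted p = 2.7e-06 and 9.5e-07). Its group means were 275 and 117 CPM without GDNF and 275 and 108 CPM with GDNF. Glial miRNAs summed to 4039 to 4716 CPM in DIV1 control (median 4698) and 4710 to 8105 in DIV5 control (median 4906), which overlap. With GDNF they summed to 4147 to 5165 CPM at DIV1 and 4308 to 5066 at DIV5 (means 4636 and 4625 CPM). Of 8 tested arms, 4 were called higher and 3 lower without GDNF, and 3 and 2 with GDNF. Their most abundant arms were miR-21a-5p, a miRNA of reactive glia and many other cells, and miR-146b-5p. The first was at 2996 and 2641 CPM without GDNF (log2 -0.18, edgeR adjusted p = 0.104) and 3040 and 2876 CPM with GDNF (log2 -0.080, adjusted p = 0.48). The second was at 513 and 2667 CPM without GDNF (log2 2.38, edgeR adjusted p = 2.8e-06) and 623 and 1256 CPM with GDNF (log2 1.01, adjusted p = 0.0088). miRNAs of vascular, mesenchymal and blood cells were called lower for 6 of 9 tested arms and higher for none, both without and with GDNF. Their sum was 3060 to 5185 CPM in DIV1 control and 646 to 1546 in DIV5 control, without overlap. With GDNF it was 2971 to 4482 CPM at DIV1 and 327 to 3172 at DIV5, which overlap. The most abundant, miR-143-3p, a miRNA of smooth muscle and mesenchyme, was at 3276 and 767 CPM without GDNF (log2 -2.10, edgeR adjusted p = 0.00079) and 2896 and 858 CPM with GDNF (log2 -1.76, adjusted p = 0.0037). The next, the joint line of miR-199b-3p and miR-199a-3p, was at 303 and 145 CPM without GDNF (log2 -1.07, edgeR adjusted p = 0.235) and 302 and 320 CPM with GDNF (log2 0.081, adjusted p = 0.936). Arms at 0 add nothing to these sums, among them miR-219a-5p, beside a mean of 224 CPM for miR-219a-1-3p. Another was miR-126a-5p, beside 53.1 CPM for miR-126a-3p. The part of these cell types in the levels of miR-1298 and its neighbours was not tested.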

How the data were processed

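Small RNA libraries of 20 midbrain neuron cultures were analysed, 4 groups of 5. Each library has a deposited file of whole-number counts for every mature miRNA, without normalisation. The submitters' processing notes name the adapter trimmer cutadapt 1.8.1, the aligner STAR 2.4.1d, the counter HTSeq and build mm10, with no settings. The miRNA annotation and strand setting are not given in the sources used here. Of 5 tally lines, 1 (reads without a feature) was above 0. These lines stayed out of totals and tests.

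Counts were tested in R 4.3.3 with edgeR 4.0.16: filterByExpr kept 542 of 1581 miRNAs with a read, libraries were scaled with TMM, and all 20 entered 1 quasi-likelihood fit with 1 coefficient per group. Calls used a two-sided Benjamini-Hochberg adjusted p below 0.05 over all 542. Single members were also compared with exact permutation tests. Standard errors of log2 differences were taken from the fitted means, the dispersion and the moderated quasi-likelihood variance. DESeq2 1.42.0, limma 3.58.1 voom, other scalings, filters and library sets were alternatives. The fit was tested on simulated data. Members and lists were chosen with earlier results of these data known; members, the miRNAs closest in pattern to miR-1298-5p and the 2 most abundant tested arms per list are named. Beyond this rule, miR-211-5p, miR-124-5p, the epithelial miR-200 group, miR-182-5p and arms at 0 with their counterparts were named after their values were seen. Lines that join 2 names were kept as 1 miRNA. miR-873 was read as miR-873a and miR-873b.

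Within DIV5, same-numbered control and GDNF libraries deviated together from their group means (r = 0.209 to 0.496 over 542 miRNAs, 5 pairs), above the minimum of 0.1 set for pairing; at DIV1 r was -0.012 to 0.44, below it in 2 pairs. The fit reported has no block, and the exact tests are unpaired; a fit with the number as a block within each day was an alternative. Libraries of different number were not compared in this way, so these r cannot show that the number marks a pair. The labels only number the replicates. No 2 libraries of a group agreed within sampling noise (lowest chi-square per degree of freedom 10.3).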

Additional observations from a re-analysis of the deposited data

Results flagged for a closer look

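In 43 groups of 5 libraries, a library far from the other 4 was sought for each arm and both ratios. In all, 2 stood out, and chance alone marks about 5% of groups. miR-764-3p in DIV1 control replicate 2 was at 2.75 CPM, the highest of its group, from 3 reads. miR-448-5p in DIV5 control replicate 2 was at 0 CPM, the lowest of its group, where 1 read was worth 0.987 CPM and the others were at 3.96 to 5.15 CPM.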

How the results depend on the processing

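The rises between the days kept their sign under every alternative run, 28 to 31 for each of the 5 tested arms. The members were chosen for this rise and every run reused these libraries, so this is a description only. With only replicates 1 and 2 kept at DIV5, miR-1298-5p had a log2 difference of 0.78 without GDNF and 0.95 with GDNF. With limma voom, miR-1264-3p without GDNF was 2.91 in place of 3.72. A filter at a mean of 10 CPM left out miR-1264-3p and miR-764-3p, and their rarer reads at DIV1 limit any fold. Both arms also fell below the low-count filter with only replicates 1 and 2 kept at DIV5. With only the libraries compared, they were left out for GDNF at DIV1 and between the days. Their fitted GDNF differences at DIV1 thus exist only through reads at DIV5.

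For GDNF no member was called under any alternative, and the sign of its small differences was not fixed. At DIV5 the count of calls over all miRNAs was 1, against 26 with DESeq2, 13 with the 10 CPM filter, 0 with only the libraries compared, 2 with only replicates 1 and 2 or only replicates 3 to 5, and 0 without DIV5 control libraries 1 and 5 (both chosen after seeing the data). With 1 library left out it ran from 0 (without DIV5 GDNF replicate 1 or 2) to 43 (without DIV5 control replicate 2). The test of the difference between the days called 1 with replicates 3 to 5 only, and 0 to 1 with 1 library left out (1 without DIV5 control replicate 2). Why these counts moved was not tested. In both DIV5 control libraries 1 and 5, 43 tested miRNAs were at least 2-fold above the mean of libraries 2, 3 and 4. Of these 43, 0 were members.

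The replicate block within each day called 0 at DIV1, 3 at DIV5, 0 for the difference between the days, and 344 and 321 between the days, and it called no member for GDNF. Its value for the difference between the days of miR-448-3p was 0.023, of the opposite sign to -0.015.

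Signs turned as follows, in log2. At DIV1, miR-448-3p was -0.011 with no filter and miR-764-3p 0.11 with voom. At DIV5, miR-1298-5p was -0.0031 with DESeq2 size factors, -0.0038 with DESeq2, -0.083 with library totals, -0.13 without DIV5 control libraries 1 and 5 and -0.030 with replicates 3 to 5 only. Under the last 3 of these, miR-448-3p was -0.066, -0.17 and -0.035, and miR-764-3p was -0.042, -0.00025 and -0.0068. For the difference between the days, miR-1298-5p was -0.0078 with library totals and -0.0092 without libraries 1 and 5. There, miR-448-3p was 0.0025 with voom, 0.034 with no filter and 0.13 with replicates 1 and 2 only. Among the differences of the exact tests at DIV5, miR-1264-5p was -0.026 without libraries 1 and 5, miR-1298-5p was -0.056 with library totals and -0.11 without libraries 1 and 5, and miR-448-3p was -0.019 and -0.13.

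With 1 library left out, the difference of miR-1264-3p between the days without GDNF ran from 3.27 to 4.37, and its GDNF difference from 0.97 to 2.05 at DIV1, from -0.45 to -0.071 at DIV5 and from -2.31 to -1.23 for the difference between the days. GDNF differences at DIV1 ran from -0.15 to 0.019 for miR-1298-5p, -0.088 to 0.13 for miR-448-3p and -0.76 to 1.02 for miR-764-3p. At DIV5 they ran from -0.0025 to 0.29 for miR-1298-3p, -0.16 to 0.17 for miR-1298-5p, -0.12 to 0.19 for miR-448-3p and -0.10 to 0.23 for miR-764-3p. The difference between the days ran from -0.51 to 0.051 for miR-1298-3p, -0.058 to 0.26 for miR-1298-5p, -0.13 to 0.16 for miR-448-3p and -0.96 to 0.81 for miR-764-3p. For the exact tests at DIV1 the ranges were -0.13 to 0.023 for miR-1298-5p, -0.078 to 0.17 for miR-448-3p, -0.099 to 0.63 for miR-764-3p and -0.63 to 0.13 for miR-764-5p. At DIV5 they were -0.57 to 0.037 for miR-1264-3p, -0.14 to 0.17 for miR-1298-5p, -0.41 to 0.088 for miR-1912-3p, -0.11 to 0.22 for miR-448-3p, -0.53 to 0.34 for miR-448-5p, -0.081 to 0.56 for miR-764-3p and -0.14 to 0.36 for miR-764-5p.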
